A study of Mus musculus with 18 samples.

Results

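The genes described here are 10 collagen genes whose products lie outside the main striated fibrils: Col6a1, Col6a2 and Col6a3 of the beaded filaments, Col7a1 of the anchoring fibrils, Col12a1, Col14a1, Col16a1 and Col22a1 of the fibril-associated collagens, and Col13a1 and Col17a1, which span the cell membrane. They were taken by collagen type and symbol from the 47643 genes of the deposited count table, and all 10 were found there, each under 1 Ensembl identifier. Of these, 9 passed the filter on low counts and were tested among 14309 genes, while Col13a1 had 0 counts in all 18 libraries.

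Collagens are extracellular proteins whose chains wind into a triple helix. Collagen VI is assembled inside the cell from different chains and forms beaded filaments close to cell surfaces and basement membranes. Fibril-associated collagens lie on the surface of striated fibrils of collagens such as I and III, or at the junction of fibrils with basement membranes. Collagen VII anchors epithelial basement membranes to the tissue beneath them, and collagen XVII joins epithelial cells to the same membranes through hemidesmosomes.

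The libraries came from MPC3, a mouse prostate cancer cell line, and the study lowered Rnf185, which encodes a ubiquitin ligase of the endoplasmic reticulum membrane, and asked about Col3a1, migration and metastatic potential. The 3 groups have 6 libraries each: a control titled plko, and a group for each of the hairpins shRNF185.1 and shRNF185.3 against Rnf185. Short hairpin RNAs are processed by the cell into small RNAs that lower a matching messenger RNA. No other allele, agent or time is given, and the labels do not say whether the control carried a hairpin or whether the hairpin cells were clones or pools. Libraries numbered 1 and 2 form batch 1, numbers 3 and 4 batch 2, and numbers 5 and 6 batch 3, so each batch holds 2 libraries of every group. Nothing in the labels says that the libraries came from separate cultures, and p-values therefore measure the spread between these libraries, which may be technical.

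Total counts ranged from 22027395 to 43379662 per library. Rnf185 fell from 35.9 ± 1.96 CPM (counts scaled to library size, as deposited) in control to 5.81 ± 0.582 under shRNF185.1 and 5.80 ± 0.546 under shRNF185.3 (SD, 6 libraries each), with no overlap between hairpin and control libraries. Of 6 epithelial markers, Epcam and Krt7 were under 1 CPM in every library. The summed epithelial level was 1409 to 1756 CPM in control, 874 to 1193 under shRNF185.1 and 940 to 1040 under shRNF185.3. Cdh1, Krt8 and Krt18 fell with each hairpin. Cldn4, at means of 1.45, 1.48 and 0.413 CPM in that order of groups, fell under shRNF185.3 but was not called under shRNF185.1. Of 4 basal epithelial markers, Krt5 was under 1 CPM in every library and Krt15 was not called with either hairpin. Trp63 rose with each hairpin, and Krt14 fell under shRNF185.1. Among prostate luminal markers, Pbsn and Tmprss2 were under 1 CPM in every library. The summed level of 8 fibroblast and mesenchymal markers was 3254 to 4231, 4172 to 4556 and 4000 to 4357 CPM in the same order of groups, with Thy1, Lum and Fap under 1 CPM throughout. Most of that sum was Vim, at means of 3201, 3349 and 3354 CPM, which was not called with either hairpin. Of the other tested markers, Pdgfrb and Postn rose and Dcn fell under shRNF185.1, and Pdgfra, Pdgfrb and Postn rose under shRNF185.3. All 4 endothelial and all 5 immune markers were under 1 CPM in every library. The epithelial sum was lower in every hairpin library than in every control library, and its part in the collagen results was not tested. In bulk RNA, fewer cells of a type and less RNA per cell cannot be told apart.

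Under shRNF185.1, 4 of the 9 tested collagen genes rose (Col6a1, Col6a2, Col12a1 and Col16a1) and 2 fell (Col7a1 and Col22a1). Among all genes tested in that comparison 14.6% were called higher and 14.3% lower, or 28.9% in all, at an adjusted p under 0.05. Under shRNF185.3, 7 rose (Col6a1, Col6a2, Col6a3, Col12a1, Col16a1, Col17a1 and Col22a1) and 0 fell by edgeR's adjusted p, against 14.2% and 13.1% of all genes, or 27.3% in all. Compared directly, 5 were higher under shRNF185.3 than under shRNF185.1 (Col6a2, Col6a3, Col7a1, Col17a1 and Col22a1) and 0 were lower, where 7.72% of all genes were higher and 6.94% lower, or 14.7% in all. In both counts of 0, DESeq2 and limma-voom also gave 0, as did edgeR's unadjusted p under 0.05. The median log2 fold change of the 9 genes was 0.25 under shRNF185.1, 0.68 under shRNF185.3 and 0.37 between the hairpins, and over all genes tested these medians were -0.02, -0.02 and 0.00. Each hairpin was compared with the same 6 control libraries, so the results of the hairpins are not independent. Groups that did not overlap control were found for all 6 called genes under shRNF185.1, 4 higher and 2 lower, where 7.02% and 5.77% of all genes (12.8% in all) had such groups. For shRNF185.3 they were found for 5 of the 7 called genes (all but Col17a1 and Col22a1), all higher, against 7.6% higher and 5.7% lower (13.3% in all). Between the hairpins 3 genes had them (Col6a3, Col7a1 and Col22a1), all higher for shRNF185.3, against 4.45% higher and 3.79% lower (8.25% in all). The summed level of the 9 genes was 2419 ± 310 CPM in control, 3623 ± 413 under shRNF185.1 and 4528 ± 560 under shRNF185.3 (SD, n = 6), and the collagen VI chains made up 86.1%, 86.4% and 87.6% of it.

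**Figure D1:**
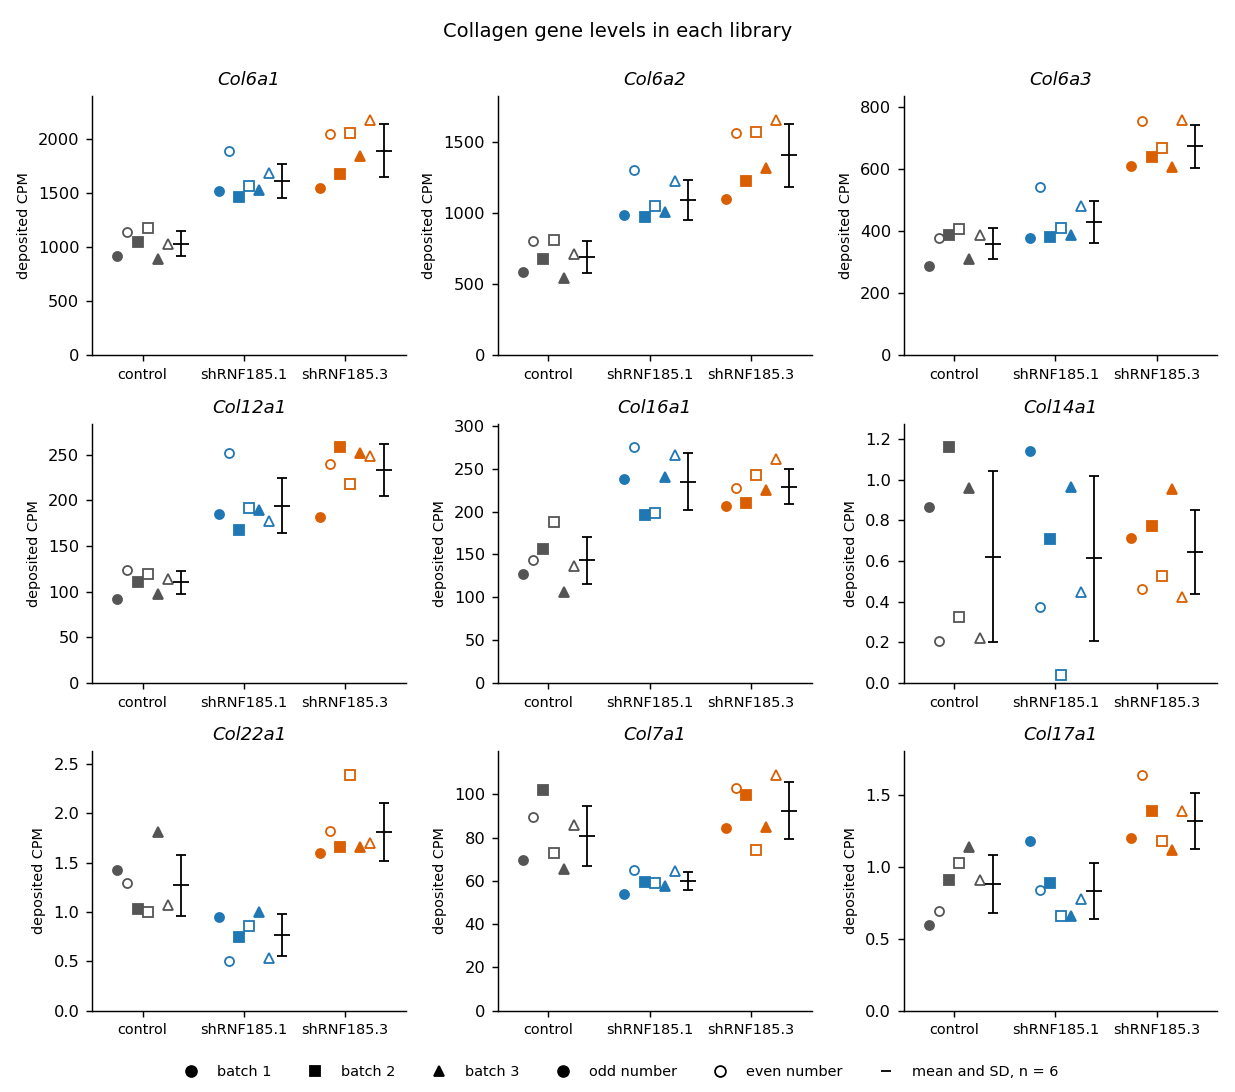
Deposited CPM (y axis, linear from 0) of the 9 detected collagen genes in each of the 18 libraries, by group (x axis); point shape marks the batch, filled points odd-numbered and open points even-numbered libraries, and the bar beside each group is the mean with its SD (n = 6). Col6a1, Col6a2, Col12a1 and Col16a1 lie above the control libraries with each hairpin, Col7a1 and Col22a1 lie below them under shRNF185.1, and every odd-numbered library holds more Col14a1 than every even-numbered library.

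Collagen VI was the most abundant of these collagens, and its genes are shown first with the 250 bases before their RefSeq transcription starts. Col6a1 (ENSMUSG00000001119) lies at chr10:76708792-76726168 and Col6a2 (ENSMUSG00000020241) at chr10:76595762-76623630, both on the minus strand of GRCm38, with 85.2 kb between them. Col6a3 (ENSMUSG00000048126) lies at chr1:90765923-90843971, also on the minus strand. None of the 3 genes shared exonic bases with another annotated gene or a 75-base stretch of transcript sequence with another gene. Promoter sequences from RefSeq (GRCm38.p6) matched 7 of the 10 genes; Col12a1, Col14a1 and Col22a1 had no entry. The sequences of the collagen VI genes are printed because these genes account for most of the measured level and because Col6a1 and Col6a2 had the most similar patterns. They were searched on both strands for the GC box GGGCGG, for the CCAAT box, for the TATA box TATAAA and for the AP-1 site, whose letters are TGACTCA or TGAGTCA, and matches are in capitals, reading 5′ to 3′ towards the start. The stretches are chr10:76726045-76726294 for Col6a1, chr10:76623405-76623654 for the first of the 2 Col6a2 entries and chr1:90843972-90844221 for Col6a3, all on the minus strand.
Col6a1: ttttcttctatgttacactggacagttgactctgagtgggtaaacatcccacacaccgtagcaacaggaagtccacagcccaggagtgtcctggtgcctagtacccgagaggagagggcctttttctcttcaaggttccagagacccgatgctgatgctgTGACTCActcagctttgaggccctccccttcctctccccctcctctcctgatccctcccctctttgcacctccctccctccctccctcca
Col6a2: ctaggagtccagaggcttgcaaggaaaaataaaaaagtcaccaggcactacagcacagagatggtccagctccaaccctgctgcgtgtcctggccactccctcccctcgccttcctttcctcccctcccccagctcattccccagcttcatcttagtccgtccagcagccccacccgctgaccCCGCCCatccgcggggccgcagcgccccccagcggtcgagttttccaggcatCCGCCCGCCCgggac
Col6a3: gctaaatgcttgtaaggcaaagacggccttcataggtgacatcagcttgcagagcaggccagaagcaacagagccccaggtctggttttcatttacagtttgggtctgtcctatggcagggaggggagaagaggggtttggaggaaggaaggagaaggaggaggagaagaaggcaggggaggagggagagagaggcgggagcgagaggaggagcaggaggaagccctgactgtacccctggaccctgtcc
The Col6a1 stretch held 1 AP-1 match, which 4.43% of 27025 RefSeq promoters of the same length hold. The annotated minus-strand start of Col6a1, at chr10:76726168, falls within this stretch, and the match lies inside the annotated gene. The printed Col6a2 stretch held 3 GC box matches, 2 of them overlapping at its end, and 32.9% of promoters hold at least 1. All 3 lie inside the annotated gene, whose minus-strand start is at chr10:76623630. The other Col6a2 entry, chr10:76623631-76623880, lies before that start and held 1 GC box match and none of the other motifs, at 59.2% GC. The Col6a3 stretch held 0 matches of the 4 motifs. Their GC content was 56.0%, 64.4% and 57.2%, where the median promoter has 52%. A match describes letters and does not show that a factor binds.

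Col6a1 encodes a chain that every collagen VI molecule needs. Its level was 888 CPM in the lowest, 1038 at the median and 1176 in the highest control library. Under shRNF185.1 these values were 1462, 1551 and 1887 CPM, and under shRNF185.3 they were 1548, 1947 and 2180 CPM. All hairpin libraries were above all controls, and the hairpins overlapped each other. Col6a1 rose 1.56-fold under shRNF185.1 (log2 fold change 0.64, SE 0.09, edgeR adjusted p 2.84e-05) and 1.84-fold under shRNF185.3 (0.88, SE 0.09, adjusted p 8.95e-07). Within batches 1, 2 and 3 the differences in mean log2 CPM were 0.73, 0.45 and 0.75 under shRNF185.1 and 0.81, 0.74 and 1.07 under shRNF185.3. The difference between the hairpins was 0.24 (95% interval 0.05 to 0.42, adjusted p 0.0892) and passed the threshold without shRNF185.1 replicate 2 or without shRNF185.3 replicate 1 (lowest adjusted p 0.0362), and with the replicate number as a block (0.23, adjusted p 0.0261), but not after summing the 2 libraries that share a group and a batch (0.25, adjusted p 0.0668).

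Col6a2 encodes the chain that pairs with that of Col6a1 in the assembled molecule. Control libraries held 542, 695 and 811 CPM (lowest, median, highest), shRNF185.1 libraries 969, 1030 and 1303, and shRNF185.3 libraries 1101, 1440 and 1656. Again all hairpin libraries were above all controls. The rise was 1.58-fold under shRNF185.1 (log2 fold change 0.66, SE 0.12, adjusted p 0.000281) and 2.04-fold under shRNF185.3 (1.03, SE 0.12, adjusted p 2.85e-06). By batch it was 0.72, 0.44 and 0.84 under shRNF185.1 and 0.93, 0.90 and 1.25 under shRNF185.3. Col6a2 was higher under shRNF185.3 than under shRNF185.1 by 0.37 (SE 0.12, adjusted p 0.0379), and 4 of 6 shRNF185.3 libraries were above the highest shRNF185.1 library. That call did not hold when shRNF185.1 replicate 1, 3, 4 or 5 or shRNF185.3 replicate 2, 4 or 6 was left out (adjusted p up to 0.0965), nor with batch as a covariate (adjusted p 0.0646), without the filter on low counts (adjusted p 0.076) or without batch 1, 2 or 3 (adjusted p 0.0726, 0.217 and 0.142).

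Col6a3 encodes the longest of these collagen VI chains, whose end is cleaved off as the peptide endotrophin. Its levels were 287, 383 and 408 CPM in control (lowest, median, highest), 377, 399 and 541 under shRNF185.1 and 606, 654 and 759 under shRNF185.3. Here the shRNF185.3 libraries stood above all others, while control and shRNF185.1 libraries overlapped. Col6a3 rose 1.87-fold under shRNF185.3 (log2 fold change 0.90, SE 0.10, adjusted p 2.98e-06), with 1.04, 0.72 and 0.97 in the 3 batches. Under shRNF185.1 its log2 fold change was 0.25 (SE 0.10, 95% interval 0.04 to 0.47, adjusted p 0.0715), with 0.45, -0.01 and 0.32 by batch. It passed the threshold without control replicate 4 (0.29, adjusted p 0.0473) and without batch 2 (0.39, adjusted p 0.0403). It also did so with library size as the only scaling (0.28, adjusted p 0.039), after the same summing of libraries (0.27, adjusted p 0.0447) and with the replicate number as a block (0.25, adjusted p 0.0119). The even-numbered library held more Col6a3 in every group and batch. The hairpins differed by 0.65 (SE 0.10, adjusted p 0.000224), with 0.59, 0.73 and 0.65 by batch.

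**Figure D2:**
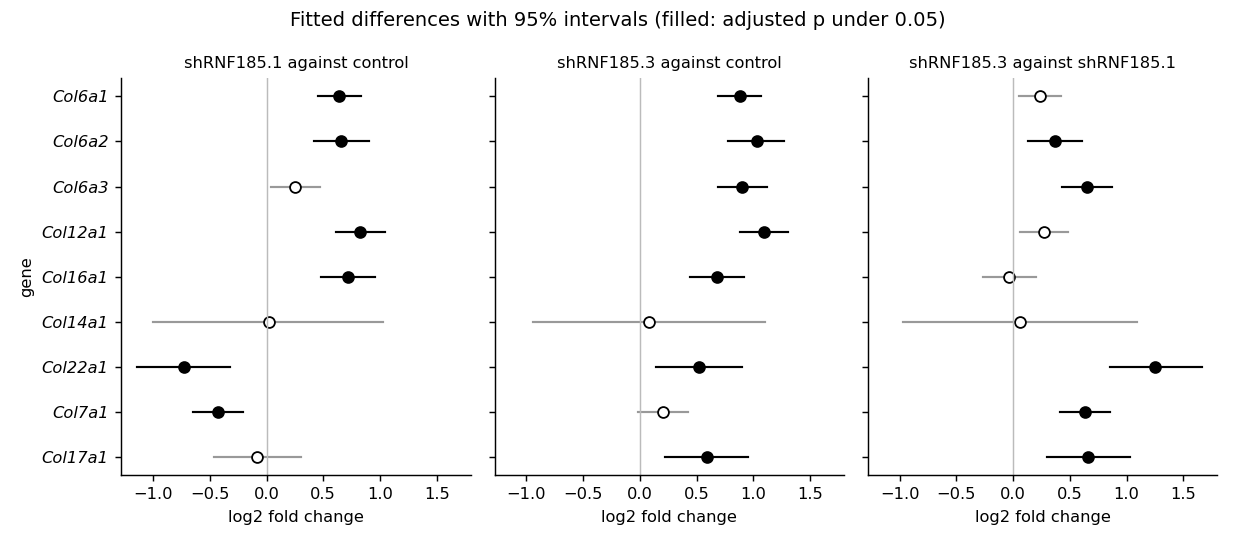
Log2 fold changes (x axis) of the 9 tested collagen genes (y axis) in the 3 comparisons, each with its 95% interval from edgeR; filled points have an adjusted p under 0.05. Col6a3 was at 0.25 under shRNF185.1 and 0.90 under shRNF185.3, and Col22a1 and Col7a1 lie to the left of 0 under shRNF185.1 and to the right under shRNF185.3.

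Because the 3 chains assemble together, their levels were also compared within each library, as CPM per kb of the principal transcript, which does not depend on the scaling between libraries. The Col6a3/Col6a1 ratio was 0.159 ± 0.0108 in control, 0.121 ± 0.00753 under shRNF185.1 and 0.163 ± 0.0129 under shRNF185.3 (SD, n = 6). Every shRNF185.1 library, at 0.113 to 0.131, was below every control library, at 0.143 to 0.172, and every shRNF185.3 library, at 0.148 to 0.179. The log2 ratio was lower by 0.39 under shRNF185.1 than in control, a difference of -0.39 (two-sided exact permutation p 0.00216, or 0.00433 adjusted over the 6 ratio tests), with -0.28, -0.46 and -0.44 by batch. Between the hairpins it differed by 0.43 (exact p 0.00216, adjusted 0.00433), with 0.52, 0.43 and 0.33 by batch. For shRNF185.3 against control the difference was 0.04 (exact p 0.578, adjusted 0.587), with 0.24, -0.03 and -0.11 by batch. A p of 0.00216 is the smallest that 6 libraries against 6 allow. Without batch 1 and without batch 2, which leave 4 libraries a group, the difference was -0.45 and -0.36 under shRNF185.1 and 0.38 and 0.42 between the hairpins (exact permutation, adjusted p 0.0571 for each). In these subsets the groups stayed fully separate, and the unadjusted p was already the smallest that 4 libraries against 4 allow. Missing the threshold there therefore does not show a weaker difference. Without batch 3 both calls held (exact permutation, adjusted p 0.0429 for each).

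The Col6a2/Col6a1 ratio was 0.690 ± 0.0389 in control, 0.701 ± 0.0301 under shRNF185.1 and 0.768 ± 0.0255 under shRNF185.3 (SD, n = 6). It was higher under shRNF185.3 than in control by 0.16 on the log2 scale (exact permutation p 0.00216, adjusted 0.00433) and than under shRNF185.1 by 0.13 (exact p 0.00649, adjusted 0.00974). The shRNF185.3 libraries, at 0.739 to 0.792, were all above the control libraries, the highest of which was at 0.736, and overlapped the shRNF185.1 libraries, which reached 0.754. For shRNF185.1 against control the difference was 0.02 (exact p 0.587, adjusted 0.587). The even-numbered library had the higher ratio in every group and batch, for example 0.718 against 0.634 in batch 3 of control. The permutation took no account of library number. Without batch 1 and without batch 2 the values were 0.17 and 0.15 for shRNF185.3 against control (adjusted p 0.0571 for each, exact permutation) and 0.13 and 0.12 between the hairpins (adjusted p 0.0857 and 0.129). Against control the groups stayed fully separate in both subsets, so the unadjusted p was the smallest that these subsets allow. Without batch 3 the calls against control and between the hairpins held (exact permutation, adjusted p 0.0429 for each). Both ratios depend on the transcript length taken for each gene, but their differences between groups do not.

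**Figure D3:**
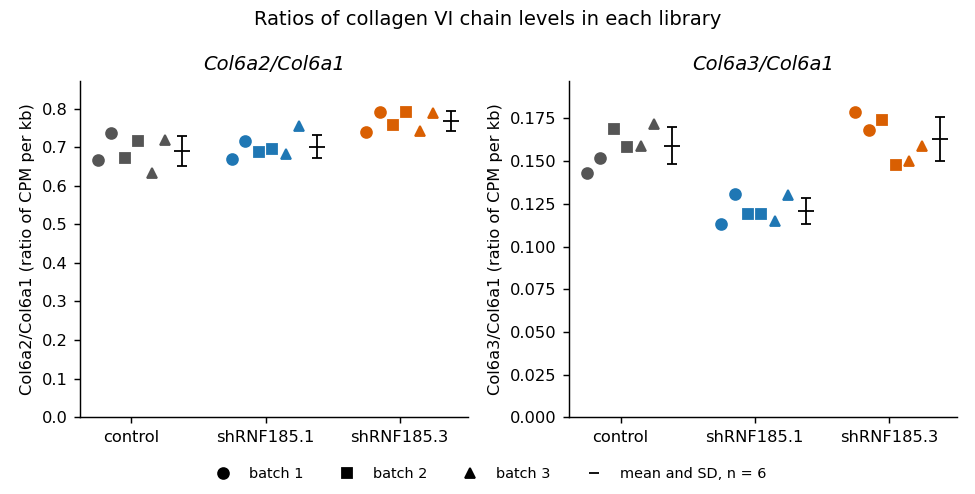
Ratios of the per-kb levels of Col6a2 (left) and Col6a3 (right) to Col6a1 in each library (y axis, linear from 0) by group (x axis); point shape marks the batch and the bar beside each group is the mean with its SD (n = 6). The Col6a3/Col6a1 ratio is 0.121 under shRNF185.1 and below every other library there, while Col6a2/Col6a1 is highest under shRNF185.3 at 0.768.

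Among the fibril-associated collagens, Col12a1 and Col16a1 were the abundant members. Col12a1 (ENSMUSG00000032332, chr9:79598991-79718831, minus strand) encodes collagen XII, a large homotrimer that binds the surface of collagen I fibrils. Its levels were 92.1, 112 and 124 CPM in control (lowest, median, highest), 167, 187 and 252 under shRNF185.1 and 182, 244 and 258 under shRNF185.3. All hairpin libraries exceeded all controls. Col12a1 rose 1.77-fold under shRNF185.1 (log2 fold change 0.82, SE 0.10, adjusted p 6.9e-06) and 2.13-fold under shRNF185.3 (1.09, SE 0.10, adjusted p 2.7e-07). The differences by batch were 1.02, 0.64 and 0.79, and 0.97, 1.05 and 1.25. The hairpins differed by 0.27 (95% interval 0.06 to 0.48, adjusted p 0.0831), with -0.04, 0.41 and 0.46 by batch. This difference passed the threshold without shRNF185.1 replicate 2, without shRNF185.3 replicate 1 or without batch 1 (0.36, 0.33 and 0.43).

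Col16a1 (ENSMUSG00000040690, chr4:130047840-130099283, plus strand) encodes collagen XVI, a minor component of fibrils and microfibrils. Its RefSeq promoter stretch, chr4:130047590-130047839 on the plus strand, is shown because its fold changes under the hairpins were the closest among the abundant members.
Col16a1: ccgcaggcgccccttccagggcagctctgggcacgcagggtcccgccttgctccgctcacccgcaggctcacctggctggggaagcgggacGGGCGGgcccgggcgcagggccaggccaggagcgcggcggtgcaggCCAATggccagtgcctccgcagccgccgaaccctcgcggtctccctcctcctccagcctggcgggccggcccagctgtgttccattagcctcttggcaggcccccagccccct
It held 1 GC box and 1 CCAAT match, found in 32.9% and 34.5% of promoters, and its GC content of 75.6% was the highest of the 7 genes with an entry. Levels were 106, 140 and 188 CPM in control (lowest, median, highest), 196, 239 and 275 under shRNF185.1 and 206, 226 and 261 under shRNF185.3. All hairpin libraries exceeded all controls, and the hairpins overlapped. Col16a1 rose 1.65-fold under shRNF185.1 (log2 fold change 0.72, SE 0.11, adjusted p 0.0001) and 1.60-fold under shRNF185.3 (0.68, SE 0.11, adjusted p 0.000178). The differences varied between batches, at 0.92, 0.20 and 1.07 under shRNF185.1 and 0.68, 0.40 and 1.01 under shRNF185.3. Between the hairpins the difference was -0.04 (95% interval -0.27 to 0.20, adjusted p 0.903).

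Col22a1 (ENSMUSG00000079022, chr15:71795795-72034227, minus strand) encodes collagen XXII, known from tissue junctions such as that of muscle and tendon, and was near the lower limit of detection. Control libraries held 25 to 51 counts, shRNF185.1 libraries 13 to 26 and shRNF185.3 libraries 36 to 77. In CPM these were 1.00, 1.18 and 1.81 in control (lowest, median, highest), 0.499, 0.799 and 1.00 under shRNF185.1 and 1.60, 1.68 and 2.39 under shRNF185.3. The shRNF185.1 libraries were lowest, although the highest of them and the lowest control library round to the same value, and the shRNF185.3 libraries overlapped the controls. Col22a1 was lower under shRNF185.1 than in control (log2 fold change -0.73, SE 0.20, adjusted p 0.00803), with -0.90, -0.33 and -0.86 by batch. That call was lost without batch 1 (-0.64, adjusted p 0.12) and without batch 3 (-0.65, adjusted p 0.0632). Under shRNF185.3 it rose (0.52, SE 0.18, adjusted p 0.0417), with 0.32, 0.92 and 0.26 by batch, but that call was lost when control replicate 2, 3, 4 or 6 or shRNF185.3 replicate 2, 3, 4, 5 or 6 was left out (adjusted p up to 0.116). Without batch 1 the value was 0.60 (adjusted p 0.117), and without batch 2 it was 0.28 (adjusted p 0.384). It was not called either without the filter on low counts (0.51, adjusted p 0.0885), with batch as a covariate (0.52, adjusted p 0.0708) or with the GC and length offset (0.43, adjusted p 0.0826). The hairpins differed by 1.25 (SE 0.19, adjusted p 0.000175), and this difference was 1.23, 1.25 and 1.12 in the 3 batches. An antisense gene, Gm16308, overlaps 0.174% of its exonic bases.

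Col14a1 (ENSMUSG00000022371, chr15:55307750-55520803, plus strand) encodes collagen XIV, a relative of collagen XII on fibril surfaces. It had 6 to 28 counts in control, 1 to 30 under shRNF185.1 and 11 to 23 under shRNF185.3, or 0.622 ± 0.419, 0.613 ± 0.407 and 0.643 ± 0.206 CPM (SD, n = 6). The log2 fold changes were 0.02 under shRNF185.1 (95% interval -1.0 to 1.03, adjusted p 0.986) and 0.08 under shRNF185.3 (-0.94 to 1.10, adjusted p 0.924). No difference was detectable at this depth, and the intervals leave a wide range of changes in either direction. Within every group the odd-numbered libraries were higher: odd-numbered libraries held 0.709 to 1.16 CPM and even-numbered libraries 0.0388 to 0.529 CPM.

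Col7a1 (ENSMUSG00000025650, chr9:108953586-108984875, plus strand) encodes the only chain of collagen VII, the substance of anchoring fibrils. Its RefSeq promoter stretch, chr9:108953336-108953585 on the plus strand, is shown because Col7a1 was the abundant member that fell under shRNF185.1.
Col7a1: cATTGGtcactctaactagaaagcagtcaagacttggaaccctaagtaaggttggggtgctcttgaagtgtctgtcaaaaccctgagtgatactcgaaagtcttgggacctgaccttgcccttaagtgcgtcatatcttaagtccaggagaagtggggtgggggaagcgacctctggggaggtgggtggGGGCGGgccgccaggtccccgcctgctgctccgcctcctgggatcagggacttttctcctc
It held 1 CCAAT match at its far end and 1 GC box match, and its GC content was 56.4%. Levels were 65.7, 79.3 and 102 CPM in control (lowest, median, highest), 53.7, 59.3 and 65.0 under shRNF185.1 and 74.3, 92.3 and 109 under shRNF185.3. The shRNF185.1 libraries were below all others, and the shRNF185.3 libraries overlapped the controls. Col7a1 fell to 0.741 of the control level under shRNF185.1 (log2 fold change -0.43, SE 0.11, adjusted p 0.00415), with -0.41, -0.54 and -0.30 by batch. Under shRNF185.3 the log2 fold change was 0.20 (95% interval -0.02 to 0.42, adjusted p 0.172), with 0.25, 0.00 and 0.36 by batch, and it passed the threshold without control replicate 3 (0.28, adjusted p 0.0445), with summed libraries (0.23, adjusted p 0.0192) and with the replicate number as a block (0.20, adjusted p 0.0485). The hairpins differed by 0.63 (SE 0.11, adjusted p 0.000383), with 0.67, 0.54 and 0.66 by batch. The microRNA gene Mir711 overlaps 0.35% of its exonic bases on the same strand.

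Of the membrane-spanning collagens, Col17a1 (ENSMUSG00000025064, chr19:47646344-47692094, minus strand) was detected at low counts. It encodes collagen XVII, whose extracellular part reaches from the hemidesmosome into the basement membrane. There were 18 to 44 counts in control, 17 to 31 under shRNF185.1 and 27 to 46 under shRNF185.3. In CPM, control libraries held 0.598, 0.909 and 1.14 (lowest, median, highest), shRNF185.1 libraries 0.656, 0.810 and 1.18, and shRNF185.3 libraries 1.12, 1.29 and 1.64. In the shRNF185.3 group 5 of 6 libraries were above the highest control. Col17a1 rose under shRNF185.3 (log2 fold change 0.59, SE 0.17, adjusted p 0.0167), with 1.05, 0.38 and 0.28 by batch. Without batch 1 that was 0.35 (adjusted p 0.196), leaving out batch 2 gave 0.68 (adjusted p 0.0542), and with an offset for GC content and length 0.48 (adjusted p 0.0516). Summed libraries gave 0.60 (adjusted p 0.0613) and the replicate number as a block 0.58 (adjusted p 0.0544). Under shRNF185.1 it was -0.08 (95% interval -0.46 to 0.30, adjusted p 0.78), with 0.58, -0.31 and -0.47 by batch. The hairpins differed by 0.66 (SE 0.18, adjusted p 0.0145), with 0.47, 0.70 and 0.75 by batch, and by 0.63 (adjusted p 0.136) without batch 2 and 0.61 (adjusted p 0.106) without batch 3. With summed libraries that difference was 0.68 (adjusted p 0.0625). Col13a1 (ENSMUSG00000058806, chr10:61838236-61979108, minus strand) encodes collagen XIII, a membrane collagen of cell adhesions. Its 0 counts allow a level of up to 0.0692 to 0.136 CPM, which is 3 counts in the deepest and the shallowest library and covers counting error only.

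**Figure D4:**
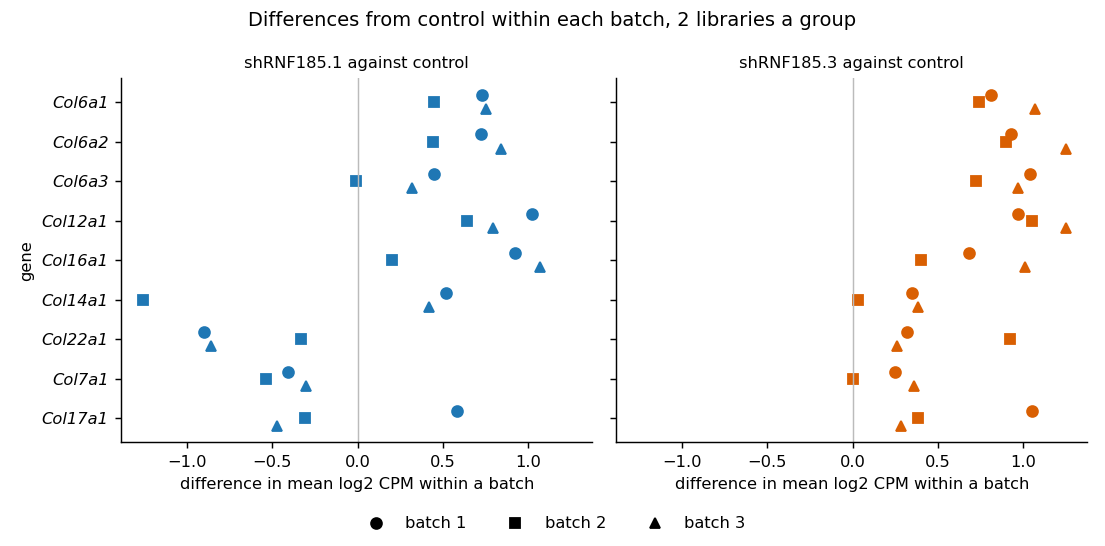
Differences from control in mean log2 CPM (x axis) of the 9 genes (y axis) within each batch, with 2 libraries a group; shapes mark the batches, shRNF185.1 is on the left and shRNF185.3 on the right. Col6a1, Col6a2, Col12a1 and Col16a1 lie above 0 in every batch with each hairpin, Col7a1 and Col22a1 lie below 0 in every batch under shRNF185.1, and Col14a1 and Col17a1, and Col6a3 at -0.01 in batch 2, change sign between batches under shRNF185.1.

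Compared per kb of the principal transcript, the genes spanned more than 3 orders of magnitude in level. In control, Col6a1 was at 252 ± 28.1 CPM per kb, Col6a2 at 175 ± 28.0, Col6a3 at 40.0 ± 5.43 and Col16a1 at 27.5 ± 5.30 (SD, n = 6). Below these were Col12a1 at 9.52 ± 1.07 and Col7a1 at 8.74 ± 1.51 CPM per kb. Col17a1 at 0.161 ± 0.0368, Col22a1 at 0.144 ± 0.0354 and Col14a1 at 0.110 ± 0.0738 CPM per kb came last. The control ranges of Col6a3 and Col16a1, of Col12a1 and Col7a1, of Col17a1 and Col22a1, and of Col22a1 and Col14a1 overlapped, while the other neighbours in this order were separate. Under shRNF185.1, Col12a1 at 16.8 ± 2.61 and Col7a1 at 6.48 ± 0.468 CPM per kb no longer overlapped, and under shRNF185.3 they were at 20.2 ± 2.50 and 10 ± 1.43. Under shRNF185.3, Col6a3 at 74.7 ± 7.61 and Col16a1 at 44.0 ± 3.94 CPM per kb were separate too. With all annotated exonic bases as the length, Col7a1 at 7.86 stood above Col12a1 at 7.19 CPM per kb in control.

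Within groups, levels also differed by library number. Each group and batch holds an odd-numbered and an even-numbered library, which gives 9 pairs. The even-numbered library held more Col6a1, Col6a2, Col6a3 and Col16a1 in 9 of 9 pairs, with median log2 differences of 0.24, 0.36, 0.31 and 0.21. The odd-numbered library held more Col14a1 in 9 of 9 pairs, with a median of -1.45 for even minus odd. Over all genes tested, 4.88% were higher in the even-numbered library in every pair and 5.51% in the odd-numbered library. Col7a1 and Col12a1 were higher in the even-numbered library in 6 of 9 pairs, Col17a1 in 5 and Col22a1 in 4. The labels give no meaning to the numbers beyond the batches, and the part of this difference in the results was not tested.

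The pattern of each member with a mean of at least 1 CPM was compared with that of every other tested gene by the root-mean-square difference of centred log2 CPM over the 18 libraries. Col6a1 and Col6a2 were closest to each other, at 0.09, where the median gene was at 0.45 from Col6a1. Col12a1 was closest to Col6a1, at 0.16. For Col16a1 the closest gene was Adgra2, at 0.11, which was at 170, 298 and 308 CPM in control, shRNF185.1 and shRNF185.3. For Col6a3 it was Plekho1, at 0.15, with 21.1, 24.0 and 33.6 CPM, and for Col7a1 it was Tcf7, also at 0.15, with 23.9, 18.7 and 26.5 CPM. The low genes had more distant neighbours: Col17a1 was at 0.21 from 2610203C22Rik and Col22a1 at 0.24 from Angel1. Against Col6a1, Col6a3 was at 0.21, Col7a1 at 0.47 and Col22a1 at 0.68. These distances describe the libraries, which share batches and odd and even numbers, and carry no test.

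Other genes of the same structures were counted from lists, and the counts stand beside 14.6% of all genes called higher and 14.3% lower under shRNF185.1, and 14.2% and 13.1% under shRNF185.3. Of 12 other chains of these collagen classes, 11 were in the table and 3 were tested, of which 0 were called under shRNF185.1 by edgeR, DESeq2 or limma-voom, or by edgeR's unadjusted p under 0.05. Under shRNF185.3, Col9a3, a chain of the cartilage collagen IX, rose from a mean of 0.640 to 1.13 CPM (log2 fold change 0.83, adjusted p 0.0272) and Col20a1 from 0.406 to 0.741 CPM (0.87, adjusted p 0.0407). Both were at low counts, with 12 to 28 in control and 21 to 43 under shRNF185.3 for Col9a3. For Col20a1 these were 5 to 18 and 10 to 25. Only 3 of 6 shRNF185.3 libraries were above the highest control for each gene. The median log2 fold change of the 3 was 0.02 under shRNF185.1 and 0.83 under shRNF185.3. With 3 genes tested, these counts and medians are not a result about the list.

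Of 8 genes of the fibrils that fibril-associated collagens bind, 6 rose and 1 fell under shRNF185.1, and 7 rose and 0 fell under shRNF185.3 (0 lower also by DESeq2, limma-voom and edgeR's unadjusted p under 0.05), against 14.6% higher and 14.3% lower, and 14.2% and 13.1%, over all genes. Their median log2 fold changes were 0.86 and 1.25. Col3a1, which the series title names and which encodes collagen III, rose by 1.11 and 1.60 (adjusted p 0.000117 and 2.48e-06). Col1a1, a chain of collagen I, rose from 80.0 to 196 CPM under shRNF185.1 and to 365 CPM under shRNF185.3 (1.29 and 2.19, adjusted p 0.00223 and 1.9e-05). Col1a2, the other collagen I chain, fell from 374 to 254 CPM under shRNF185.1 (-0.56, adjusted p 0.00306) and rose to 545 CPM under shRNF185.3 (0.55, adjusted p 0.00379). The direct difference of Col1a2 between the hairpins was 1.10 (adjusted p 9.65e-06). Comp was not called in any comparison, at 0.373, 0.419 and 0.36 CPM.

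Of 8 collagen VI partners, 5 were tested, and 1 rose and 1 fell under shRNF185.1, while 2 rose and 1 fell under shRNF185.3. Over all genes 14.6% rose and 14.3% fell under shRNF185.1, and 14.2% and 13.1% under shRNF185.3, and with 5 genes tested these counts are not a result about the list. Matn2, which encodes a matrilin, rose from 87.5 to 138 CPM with each hairpin (0.66 for each, adjusted p 0.000222 and 0.000229). Dcn, which encodes the proteoglycan decorin, fell from 24.9 to 5.76 CPM under shRNF185.1 (-2.11, adjusted p 2.03e-05) and was at 17.6 CPM under shRNF185.3 (-0.50, adjusted p 0.182). Bgn, which encodes the related biglycan, rose from 28.5 to 39.8 CPM under shRNF185.3 (0.49, adjusted p 0.000583) and was at 29.3 CPM under shRNF185.1. Antxr2, a cell surface receptor for collagen VI, fell from 133 to 99.2 CPM under shRNF185.3 (-0.42, adjusted p 0.00151).

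All 9 hemidesmosome and anchoring partners of collagens VII and XVII were tested, and 2 rose and 3 fell under shRNF185.1, while 0 rose and 4 fell under shRNF185.3. For that count of 0, edgeR's unadjusted p under 0.05 gave 2 genes, DESeq2 gave 1 and limma-voom 0. Over all genes 14.6% were higher and 14.3% lower under shRNF185.1, and 14.2% and 13.1% under shRNF185.3. Itga6 and Itgb4, which encode the hemidesmosomal integrin, fell with each hairpin, Itga6 from 153 to 105 and 110 CPM (-0.54 and -0.48, adjusted p 0.00237 and 0.00611) and Itgb4 from 1.24 to 0.455 and 0.452 CPM (-1.44 and -1.45, adjusted p 0.00223 and 0.0024). Fermt1, an integrin activator, fell from 2.64 to 0.864 and 0.457 CPM (-1.60 and -2.52, adjusted p 0.00359 and 0.000157). Counts of Itgb4 were low, at 18 to 58 in control, 7 to 18 under shRNF185.1 and 9 to 17 under shRNF185.3. Those of Fermt1 were 43 to 142, 10 to 41 and 6 to 18 in the same order. Hairpin libraries overlapped control for Itga6 and Itgb4 with each hairpin, and for Fermt1 only under shRNF185.1. Dst and Plec, which encode large linker proteins, rose under shRNF185.1 (0.50 and 0.31, adjusted p 0.00086 and 0.0149). The median of the list was -0.20 under shRNF185.1 and 0.11 under shRNF185.3, where the median of all genes tested was -0.02 in each.

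Of 6 proteases that cleave these collagens or their precursors, 5 were tested, and 2 rose under shRNF185.1 and 1 under shRNF185.3, and 0 fell by edgeR, DESeq2 or limma-voom or by edgeR's unadjusted p under 0.05. Against 14.6% of all genes higher under shRNF185.1 and 14.2% under shRNF185.3, counts among 5 genes are not a result about the list. Adam9, a metalloprotease that sheds cell surface proteins, rose from 186 to 229 and 230 CPM (0.30 and 0.31, adjusted p 0.0016 and 0.00134). Adam17, a sheddase of collagen XVII, rose from 78.8 to 87.9 CPM under shRNF185.1 (0.16, adjusted p 0.00664) and was at 76.4 CPM under shRNF185.3 (-0.04, adjusted p 0.474).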

How the data were processed

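Polyadenylated RNA of 18 libraries was sequenced as single-end reads of 75 bases from strand-specific libraries, per the labels' protocols. Cutadapt 2.3, STAR 2.7.0d, RSEM 1.3.1 and the build mm10 are named in the submitters' processing notes; the strand setting of the counting is not given in the sources used here. The authors deposited estimated counts (47643 Ensembl identifiers) and CPM; the names of both tables refer to ComBat-Seq, which adjusts for batches; whether it was given the groups is not stated, and it can change within-group spread. The deposited CPM are a normalised signal, with column sums from 969986 to 1026394. Estimated counts were rounded (0.466% were not whole, 0 among the collagen genes), although the test had been planned for whole counts.

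In edgeR 4.0.16 (R 4.3.3), filterByExpr (minimum count 10) selected the genes, which were scaled by the trimmed mean of M values, and fitted with a mean per group over all 18 libraries. P-values of quasi-likelihood F tests were adjusted over 14309 genes (Benjamini-Hochberg), and 0.05 was the threshold. The script was tested on simulated data. Symbols matched 99.1% of identifiers; positions are GENCODE M21 on GRCm38. Chain ratios were tested by two-sided exact permutation of libraries. Alternatives used DESeq2 1.42.0, limma 3.58.1, other scalings, filters, covariates and subsets of libraries. The members and lists were chosen with earlier results of these data known. All 10 members, Rnf185, Col3a1, the nearest pattern to each member above 1 CPM on average, and called genes of the lists could be named. Of the per-sample columns, 0 lacked a sample. Some genes of the lists are not reported here by name.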

Additional observations from a re-analysis of the deposited data

Results flagged for a closer look

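In 33 groups of 6 libraries, 11 genes in 3 groups, the extreme library was compared with its nearest neighbour by Dixon's criterion, which chance passes in about 1.65 of 33 groups, and 2 passed. Col12a1 in shRNF185.1 replicate 2 was at 7.98 log2 CPM, apart from the next at 7.59. Col22a1 in shRNF185.3 replicate 4 was at 1.30 log2 CPM, apart from the next at 0.92.

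By the direct test, 5 of the collagen genes were higher with shRNF185.3 than with shRNF185.1. These were Col6a2 by 0.37, Col6a3 by 0.65, Col7a1 by 0.63, Col17a1 by 0.66 and Col22a1 by 1.25 on the log2 scale. Rnf185 itself differed by 0.00 (edgeR adjusted p 0.997), and why these genes differed between the hairpins was not tested. The Col6a2 call was lost with batch as a covariate (adjusted p 0.0646) and the Col17a1 call with summed libraries (adjusted p 0.0625). The log2 ratios differed too, Col6a2/Col6a1 by 0.13 and Col6a3/Col6a1 by 0.43. Among the listed genes, Col9a3 (0.97), Lama3 (0.90), Bgn (0.44), Dcn (1.62), Col1a1 (0.90), Col1a2 (1.10) and Fmod (1.06) were higher with shRNF185.3 than with shRNF185.1. Dst (-0.31), Antxr2 (-0.30) and Adam17 (-0.20) were lower with shRNF185.3.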

How the results depend on the processing

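Results were recomputed under 35 alternatives, 18 of which left out 1 library. With each hairpin, the signs of Col6a1, Col6a2, Col12a1 and Col16a1 held under all of them. Called collagen genes numbered 6 with shRNF185.1 (6 to 7 without 1 library, 5 without batch 1, 5 without batch 3, and 3, 2 and 4 in batches 1, 2 and 3 alone). With shRNF185.3 they numbered 7 (6 to 7 without 1 library, and 3, 4 and 5 in batches 1, 2 and 3 alone). That count was 5 without batch 1, without batch 2 or with the GC and length offset, and 6 with batch as a covariate or without the filter. Between the hairpins they numbered 5 (4 to 7 without 1 library, 3 without batch 2, 3 without batch 3, 0 in batch 1 alone, 2 in batch 2 alone, 0 in batch 3 alone). There the count was 4 with batch as a covariate or without the filter. Over all genes, 4141 were called with shRNF185.1 (2207 without batch 1, and 1881, 2593 and 2264 in batches 1, 2 and 3 alone), 3906 with shRNF185.3 (2120 without batch 1, 2501 without batch 3, and 574, 1315 and 2254 in single batches) and 2098 between the hairpins (753 without batch 1, 1208 without batch 2, and 475, 824 and 96 in single batches). Single batches hold fewer libraries. With the GC and length offset, 36.9% of genes called with shRNF185.3 were higher, against 51.8% without it, and 42.5% against 52.7% between the hairpins.

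Signs changed as follows, and the cause was not tested. Col14a1 with shRNF185.1 was 0.00 (DESeq2), -0.12 (limma-voom), -0.01 (limma on log2 of CPM plus 1), 0.00 (batch covariate), -0.04 (GC and length offset), -0.24 (without batch 1), -0.13 (without batch 3), -0.86 (batch 2 alone) and -0.26 to 0.27 without 1 library. With shRNF185.3 Col14a1 was 0.00 (without batch 3), -0.11 (batch 2 alone) and -0.10 to 0.33 without 1 library, and between the hairpins -0.20 (without batch 2), -0.34 (batch 1 alone), -0.04 (batch 3 alone) and -0.18 to 0.33. Col17a1 with shRNF185.1 was 0.05 without batch 2, 0.13 without batch 3, 0.64 in batch 1 alone and -0.20 to 0.00 without 1 library. In batch 2 alone Col6a3 with shRNF185.1 was -0.01 and Col7a1 with shRNF185.3 was -0.01. Between the hairpins Col12a1 was -0.04 in batch 1 alone, Col16a1 0.07 without batch 1, 0.21 in batch 2 alone and -0.09 to 0.01 without 1 library, and Rnf185 0.04 without batch 2, 0.04 without batch 3, 0.17 in batch 1 alone and -0.05 to 0.05 without 1 library. The chain ratios were recomputed with libraries or batches left out, a choice made after seeing the data: Col6a2/Col6a1 with shRNF185.1 was -0.01 without batch 3 and 0.00 to 0.04 without 1 library, and Col6a3/Col6a1 with shRNF185.3 was -0.07 without batch 1.

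The groups share replicate numbers, but same-numbered libraries had a mean correlation of -0.0144 over 18 pairs (4 over 0.1), where libraries of other groups in the same batch with the other number had -0.434 (1 of 18 over 0.1). Of the 18 libraries, 2 correlated best with their own number. Pairing was taken as shown only if every same-numbered pair was over 0.1, which these were not, although even-numbered libraries held more of the collagen VI chains in 9 of 9 pairs. Because that rule needs all 18 pairs to pass, missing it does not show that the libraries are unpaired, and the question stays undecided. With the replicate block, 7, 7 and 6 collagen genes were called in the 3 comparisons, against 3811, 3578 and 1976 of all 14309 genes, and with summed libraries 7, 7 and 4, against 3610, 3211 and 1869. The replicate block brought Col6a3 with shRNF185.1 (adjusted p 0.0119), Col7a1 with shRNF185.3 (0.0485) and Col6a1 between the hairpins (0.0261) past the threshold and took Col17a1 with shRNF185.3 (0.0544) below it. Summed libraries kept the calls of Col6a3 (0.0447) and Col7a1 (0.0192) but not that of Col6a1 (0.0668). With the replicate block Col14a1 with shRNF185.1 was 0.00, or -0.06 with the GC and length offset too, and Rnf185 between the hairpins 0.00. Counts of 1 to 77 limit Col14a1, Col17a1 and Col22a1.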
